A study of Homo sapiens with 9 samples.

Results

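The aminoacyl-tRNA synthetases are the enzymes that load each transfer RNA (tRNA) with its amino acid. The genes described here are the 20 cytosolic synthetase genes, the 16 mitochondrial ones and the 2 scaffold genes AIMP1 and AIMP2. They were taken by symbol from a deposited count table of 17637 genes, which held all 38 of them, under the older symbols without a final 1. With added MYC on top of the DHX15 knockdown, where 42.1% of all genes tested were called higher and 42.6% lower, 17 of the 20 cytosolic genes rose, by up to 4.45-fold in WARS, while QARS fell, KARS was not called, and DARS was called slightly lower under the scaling used but not under total-count scaling, where its sign turned. The mitochondrial genes moved less and in both directions, with 9 of 16 higher, 4 lower and none past 2-fold.

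The cells were KOPTK1, an established line from a human T-cell acute lymphoblastic leukaemia, with a wild-type genotype in the labels. All 3 groups held 3 libraries each. The group shControl received a control hairpin, which the deposited column names give as a hairpin against GFP. The group shDHX15 received a hairpin against DHX15, a DEAH-box RNA helicase with a role in pre-mRNA splicing, and the group shDHX15_MYC received the same numbered hairpin together with the coding region of MYC, a transcription factor known for its targets in cell growth. Delivery was by lentivirus. The stated purpose was to examine MYC as a target downstream of DHX15. The hairpin carries the number 1 in the column names, so that a knockdown here is that of 1 hairpin in 1 line. The labels name no group with MYC but no hairpin against DHX15, and none with an empty vector in place of MYC. An effect of MYC therefore cannot be told apart from that of adding a second construct. Neither the time after transduction nor the promoter that drives MYC is given in the sources used here. The labels do not say whether the libraries of a group came from separate cultures, and each p-value therefore reflects spread between libraries that may be technical.

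Each synthetase recognises its tRNAs, joins the matching amino acid to adenosine monophosphate with ATP and passes it to the end of the tRNA. The enzymes fall into class I and class II by the fold of their catalytic core, and EPRS carries a domain of each. In animal cytosol, DARS, EPRS, IARS, KARS, LARS, MARS, QARS and RARS are held in the multisynthetase complex by scaffold proteins that include AIMP1 and AIMP2. The other cytosolic enzymes act outside it and are called free here. Phenylalanyl-tRNA synthetase of the cytosol is built from FARSA and FARSB, while its mitochondrial counterpart is FARS2 alone. Mitochondrial enzymes are encoded in the nucleus and imported, and KARS and GARS serve both compartments from 1 gene each, so they were counted as cytosolic here. Uncharged tRNA activates the kinase EIF2AK4 (GCN2), which raises translation of the transcription factor ATF4, and several synthetase genes are known targets of ATF4.

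A pair of short motifs was searched on both strands from 250 bases before to 50 bases after each transcript start in RefSeq (GRCh38.p14), for which 32 of the 38 genes had an entry. TGATGNAA is the core of the response element to which ATF4 binds with C/EBP proteins, and CACGTG is the E-box to which MYC binds with MAX. The letters of the motifs do not overlap each other. TGATGNAA was found in 7 of 16 cytosolic genes (43.8%), in 1 of 14 mitochondrial genes (7.14%) and in neither scaffold gene, against 3.62% of the 35097 RefSeq windows and 3.01% of the 11435 tested genes with a window. The windows of 30 bases around the matches follow, 5′ to 3′ on the strand that reads as the motif, with the motif in capitals. The letters in capitals are alike because the search required them, apart from the letter at N. The changes of these genes with MYC, given further on, range from 0.18 to 1.51.
AARS, chr16:70289675-70289704, plus strand: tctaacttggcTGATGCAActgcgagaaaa
CARS, chr11:3057407-3057436, plus strand: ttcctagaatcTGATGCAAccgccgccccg
GARS, chr7:30594834-30594863, minus strand: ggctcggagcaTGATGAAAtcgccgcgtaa
IARS, chr9:92293692-92293721, plus strand: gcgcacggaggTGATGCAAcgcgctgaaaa
MARS, chr12:57488053-57488082, minus strand: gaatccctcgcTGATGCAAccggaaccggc
NARS, chr18:57621804-57621833, minus strand: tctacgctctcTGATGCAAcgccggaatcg
TARS, chr5:33440956-33440985, minus strand: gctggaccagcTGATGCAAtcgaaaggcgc
YARS2, chr12:32756076-32756105, minus strand: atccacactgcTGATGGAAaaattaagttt

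CACGTG was found in the window of 1 of 16 cytosolic genes (IARS), 3 of 14 mitochondrial genes and 1 of the 2 scaffold genes. It stood in 7.25% of all RefSeq windows and in 12.2% of the tested genes with a window, so that its share among the cytosolic genes, 6.25%, was below that of tested genes. The matches are shown because they include both the mitochondrial gene that fell most with MYC (CARS2) and the one that rose most (MARS2).
IARS, chr9:92293866-92293895, minus strand: tggttcgttttcCACGTGgaggcgcaaaac
AIMP2, chr7:6009478-6009507, plus strand: ccgggcgctggcCACGTGcaggtaggagcg
CARS2, chr13:110706501-110706530, minus strand: tgctgggatgcaCACGTGcttcgctaacag
EARS2, chr16:23557348-23557377, minus strand: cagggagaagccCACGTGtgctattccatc
MARS2, chr2:197705346-197705375, plus strand: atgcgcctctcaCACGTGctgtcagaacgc

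**Figure D1:**
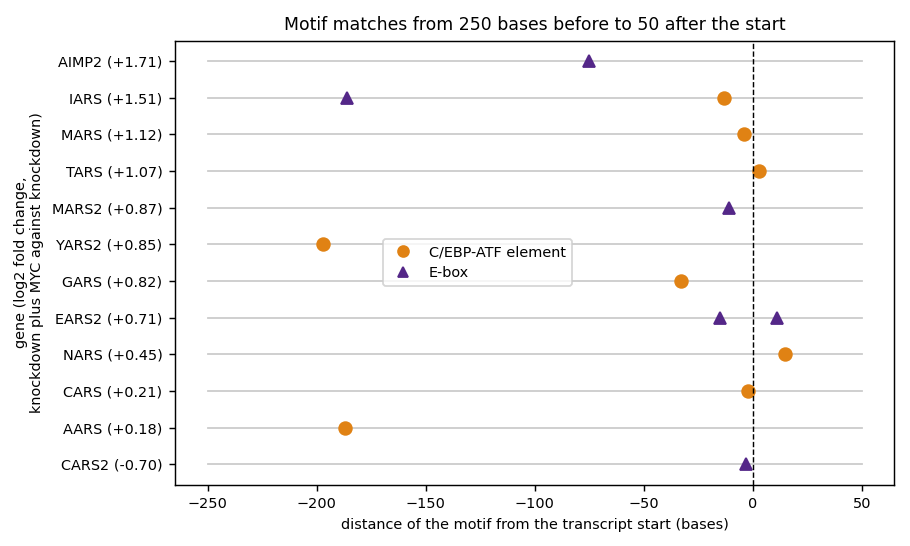
Position of each motif match (x axis, bases from the transcript start) in the genes that hold one (y axis, with the log2 change with added MYC in brackets). Circles mark TGATGNAA and triangles CACGTG. EARS2 has 1 match, drawn from each of its 2 listed starts; IARS holds both motifs and AIMP2, at +1.71, holds only the E-box.

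The libraries held 42134302 to 59688062 counts, and a count of 0 would allow up to 3 counts, or 0.0503 to 0.0712 counts per 1000000 counts (CPM), for counting error only. Levels below are CPM scaled by TMM factors. In shControl, DHX15 was at 284, 278 and 278 CPM. It was at 182, 162 and 156 CPM in the knockdown and at 197, 196 and 192 CPM in the cells with added MYC. The knockdown libraries were thus lower than the controls, and DHX15 was 1.17-fold higher with MYC than without (adjusted p = 0.00012, edgeR). The gene MYC was at 110.0, 109 and 109 CPM in the controls and at 85.3, 91.3 and 84.3 CPM in the knockdown. Its level was 6922, 7174 and 7197 CPM with the added coding region, where the transgene's reads cannot be told apart from those of the cell's own gene. Library 1 of shDHX15 stood apart from libraries 2 and 3 (chi-square per degree of freedom of the counts 17.3 and 16.4, against 2.71 to 4.36 for every other pair within a group), so results that rest on it are given without it. Of the T-lymphoblast markers, 10 of 10 reached 1 CPM in shControl and shDHX15 and 9 in shDHX15_MYC, and their summed level was 2749 to 2860, 2246 to 2326 and 1530 to 1569 CPM in these groups. Summed B-cell markers were 51.1 to 53.0, 46.5 to 48.9 and 105 to 109 CPM, carried with MYC by CD79A at 98.2 to 103 CPM, while PAX5 stayed under 1 CPM. Summed myeloid markers ran from 11.9 to 19.3 CPM and adherent-cell markers from 14.1 to 37.0 CPM over all libraries, both highest with MYC, and no erythroid marker reached 1 CPM. The part of these markers in the synthetase results was not tested, and fewer cells of a type and less RNA per cell cannot be told apart in these bulk samples.

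In the knockdown, the changes of synthetase genes were small and mixed. Of the cytosolic genes, 7 of 20 rose, 7 fell and 6 were not called (edgeR's quasi-likelihood test, called at a Benjamini-Hochberg adjusted p under 0.05 over 15309 genes). Over all genes tested, 22% were called higher and 23% lower, 45% in all. The median log2 change of the 20 genes was 0.01, against -0.0047 for all genes tested, and no cytosolic or mitochondrial gene reached 2-fold (0.849% of all genes were called at least 2-fold higher and 2.16% lower). The ranges of the 3 libraries did not overlap for 16 of the 20, against 51.1% of all genes. Among mitochondrial genes, 3 of 16 rose, 6 fell and 7 were not called, with a median of -0.10. Under scaling by total counts, 64.1% of all calls in this comparison were higher, against 48.8% under TMM scaling, and the counts above shift accordingly, with 10 cytosolic genes higher in place of 7 and 3 mitochondrial genes lower in place of 6.

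The cytosolic genes that rose with the knockdown were led by CARS, the cysteine enzyme, and GARS, the glycine enzyme. CARS was at 58.9, 59.0 and 63.5 CPM in shControl and at 75.3, 75.3 and 74.3 in shDHX15, a log2 change of 0.31 (SE 0.0392, adjusted p = 6.58e-06, edgeR). GARS was at 102, 95.8 and 102 CPM in the controls and at 119.8, 122 and 126 in the knockdown, a log2 change of 0.29 (SE 0.0357). In both genes each knockdown library was above each control library. AARS, the alanine enzyme, was at 191, 188 and 188 CPM against 225, 222 and 227, a rise of 0.25 (SE 0.0294). FARSA, the catalytic subunit for phenylalanine, was at 128, 141 and 133 CPM against 157, 159 and 160.2, also a rise of 0.25 (SE 0.0368). These 4 genes kept their ranges apart. TARS (threonine) rose by 0.22 (SE 0.0343), from 87.0, 86.5 and 86.5 CPM to 104, 100.4 and 97.2, RARS (arginine) by 0.23 (SE 0.0472) and DARS (aspartate) by 0.17 (SE 0.0418).

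QARS, the glutamine enzyme of the complex, fell most among the cytosolic genes. It lies on chr3:49095932-49105135 (GRCh38, minus strand). Its level was 209.9, 214 and 208 CPM in shControl and 167, 182 and 174 in shDHX15, a log2 change of -0.27 (SE 0.0359, adjusted p = 9.86e-06, edgeR). VARS, the valine enzyme, fell by 0.25 (SE 0.0417), from 81.7, 82.4 and 79.2 CPM to 63.4, 70.7 and 70.7. IARS, the isoleucine enzyme of the complex, fell by 0.22 (SE 0.0421), from 102, 98.9 and 98.3 CPM to 91.9, 82.2 and 82.8. Ranges did not overlap for any of these. KARS (lysine) fell by 0.19 (SE 0.0308), from 196, 193 and 197 CPM to 168, 175 and 171. YARS (tyrosine) fell by 0.18 (SE 0.0326), SARS (serine) by 0.16 (SE 0.0340) and WARS (tryptophan) by 0.13 (SE 0.0449). The call of WARS was lost without shControl library 1 (adjusted p = 0.130) or library 2 (adjusted p = 0.0630), under total-count scaling (adjusted p = 0.26) and in a fit of the 2 groups alone (adjusted p = 0.129). Not called were EPRS (glutamate and proline, log2 change -0.03, with total-count scaling 0.04), FARSB (-0.16), HARS (histidine, 0.07), LARS (leucine, -0.09), MARS (methionine, 0.07) and NARS (asparagine, 0.05). With total-count scaling HARS (0.14, adjusted p = 0.0043, edgeR), MARS (0.13, adjusted p = 0.00139) and NARS (0.12, adjusted p = 0.0129) were called higher. FARSB stood at 37.3, 38.6 and 37.3 CPM in shControl and at 39.1, 31.0 and 31.2 in shDHX15, so that the library of the knockdown that stood apart was the high one. Without that library FARSB was called lower (-0.28, adjusted p = 7.07e-06, edgeR), as was LARS (-0.11, adjusted p = 0.00478), which was also called lower without shControl library 2 (-0.11, adjusted p = 0.0424).

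The scaffolds differed in the knockdown. AIMP2 was at 17.7, 19.1 and 19.4 CPM in shControl and at 15.2, 15.0 and 13.8 in shDHX15, a fall of 0.35 (SE 0.0609, adjusted p = 0.000171, edgeR) with no overlap. AIMP1 was at 44.6, 40.9 and 46.2 CPM against 46.1, 42.9 and 42.8, with overlapping ranges and no call (0.00, SE 0.0529).

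The 6 mitochondrial genes called lower in the knockdown were PARS2 (proline, -0.43, SE 0.137), FARS2 (phenylalanine, -0.35, SE 0.0777), WARS2 (tryptophan, -0.30, SE 0.0925), YARS2 (tyrosine, -0.22, SE 0.0713), EARS2 (glutamate, -0.21, SE 0.0627) and AARS2 (alanine, -0.14, SE 0.0530). FARS2 was at 16.1, 18.3 and 19.5 CPM in shControl and at 13.7, 14.2 and 14.3 in shDHX15. WARS2 was at 11.6, 11.7 and 11.8 CPM against 9.67, 9.20 and 9.52, and both genes kept their ranges apart. The genes called higher were TARS2 (threonine, 0.24, SE 0.0590), from 33.9, 38.7 and 38.0 CPM to 40.7, 42.8 and 47.4, LARS2 (leucine, 0.13, SE 0.0484) and VARS2 (valine, 0.10, SE 0.0354). Several of these calls rested on single libraries. Without shControl library 3, no call remained for AARS2 (adjusted p = 0.208), LARS2 (0.181), PARS2 (0.105), VARS2 (0.127) or YARS2 (0.0648). Without shDHX15 library 3 the same genes had adjusted p-values of 0.0722, 0.126, 0.0675, 0.104 and 0.0610. Leaving out shControl library 2 ended the calls of AARS2 (0.0868), PARS2 (0.0524) and YARS2 (0.1004), leaving out shControl library 1 those of LARS2 (0.0643) and VARS2 (0.0678), and leaving out shDHX15 library 2 those of LARS2 (0.0634) and VARS2 (0.0539). AARS2, whose ranges overlapped, also lost its call without shDHX15 library 1 (0.0631) or shDHX15_MYC library 3 (0.0507). Total-count scaling ended the calls of AARS2 (0.255), EARS2 (0.0626) and YARS2 (0.0946). CARS2 (-0.04, 0.02 with total-count scaling), HARS2 (-0.02, 0.05 with total-count scaling), IARS2 (-0.09), MARS2 (-0.12), NARS2 (0.03), RARS2 (-0.11) and SARS2 (0.01) were not called.

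**Figure D2:**
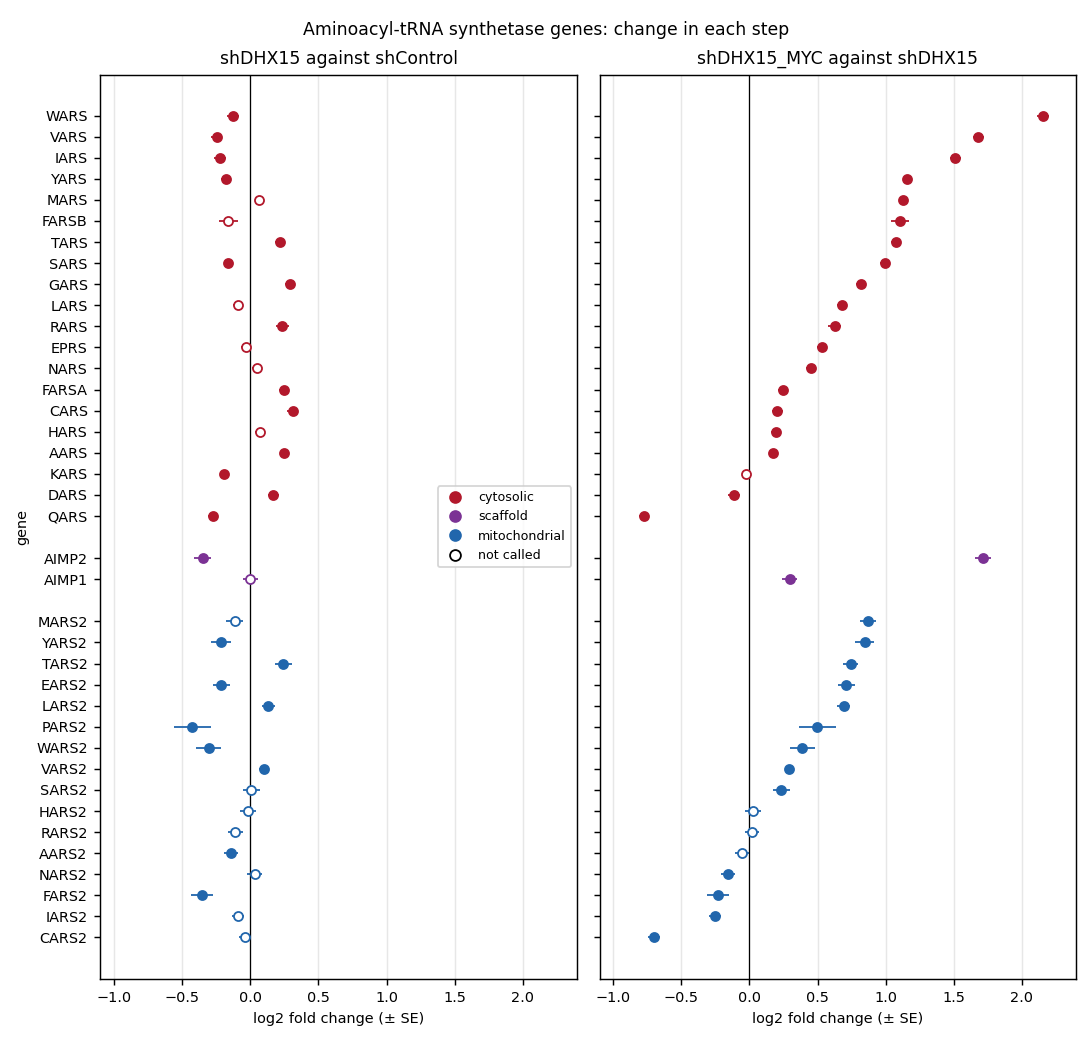
Log2 fold change (x axis, error bars are SE) of each of the 38 genes (y axis) in the knockdown against shControl and in added MYC against the knockdown, coloured by compartment, with open points for genes that were not called. In the knockdown all points lie between -0.43 and 0.31, and with added MYC the cytosolic genes spread from -0.77 to 2.15.

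With added MYC, compared with the knockdown alone, the messages of most cytosolic synthetases were higher. Of the 20 genes 17 rose, 2 fell and 1 was not called (edgeR's quasi-likelihood test, adjusted p), where 42.1% of all genes tested were called higher and 42.6% lower. The median log2 change was 0.65, against 0.0058 for all genes, and 7 cytosolic genes rose at least 2-fold (21.7% of all genes did). Ranges did not overlap for 19 of 20 cytosolic genes, against 85% of all genes. Most genes were called between these groups, so a call alone separates the synthetases little from the rest. The direction and the size of a change can be read against the shares given here. Scaling by total counts moved the median of all genes to 0.20 in this comparison and to 0.28 against shControl, and DESeq2 to 0.11 and 0.0994, so changes of that size can take their sign from the scaling.

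The largest rise was that of WARS, the tryptophan enzyme, on chr14:100333788-100376805 (GRCh38, minus strand). Its level was 26.7, 27.6 and 27.5 CPM in shDHX15 and 122, 121 and 121 in shDHX15_MYC, a log2 change of 2.15 (SE 0.0428, 4.45-fold, adjusted p = 1.43e-17, edgeR). All 3 libraries with MYC lay far above the other 6, where WARS did not exceed 31.1 CPM. WDR25, a gene that shares part of its exons, went from 2.83 to 6.44 CPM. The 250 bases before the start of WARS hold neither motif and are shown beside those of IARS, which hold both, and of QARS, which fell; in IARS the capitals mark the E-box and, near the end, the reverse complement of TGATGNAA.
WARS, chr14:100376328-100376577, minus strand: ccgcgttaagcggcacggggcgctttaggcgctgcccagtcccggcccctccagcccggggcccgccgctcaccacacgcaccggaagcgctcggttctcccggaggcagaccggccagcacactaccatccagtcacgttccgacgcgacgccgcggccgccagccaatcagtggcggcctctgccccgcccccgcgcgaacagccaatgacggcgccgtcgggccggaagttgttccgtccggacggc
IARS, chr9:92293698-92293947, minus strand: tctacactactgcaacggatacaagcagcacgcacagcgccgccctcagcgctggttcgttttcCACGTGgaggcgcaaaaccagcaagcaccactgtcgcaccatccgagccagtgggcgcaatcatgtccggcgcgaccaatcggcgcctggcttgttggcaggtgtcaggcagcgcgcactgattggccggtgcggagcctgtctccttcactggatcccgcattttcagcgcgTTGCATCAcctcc
QARS, chr3:49104758-49105007, minus strand: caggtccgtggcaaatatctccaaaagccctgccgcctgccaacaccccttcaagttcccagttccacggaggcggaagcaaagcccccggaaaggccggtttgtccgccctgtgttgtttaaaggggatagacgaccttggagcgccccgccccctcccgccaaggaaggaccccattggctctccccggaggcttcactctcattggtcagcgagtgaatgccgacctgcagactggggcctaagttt

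All 12 free cytosolic enzymes rose with MYC, with a median log2 change of 0.91 and a range of 0.18 to 2.15. VARS, on chr6:31777518-31795953, went from 63.4, 70.7 and 70.7 CPM to 215, 219 and 222, a log2 change of 1.68 (SE 0.0412, adjusted p = 2.04e-16, edgeR), and its libraries with MYC were all above those of both other groups. YARS rose by 1.16 (SE 0.0324), from 117 ± 2.25 to 263 ± 2.57 CPM (SD, n = 3). FARSB, the other subunit for phenylalanine, rose by 1.11 (SE 0.0673), from 39.1, 31.0 and 31.2 CPM to 71.6, 72.3 and 74.0. FARSA, with which FARSB forms 1 enzyme, rose by 0.25 (SE 0.0364), to 193, 184 and 188 CPM, so that the messages of the 2 subunits changed unequally.

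TARS rose by 1.07 (SE 0.0337) to 215, 208 and 212 CPM, which is above every library of the other groups. SARS rose by 0.99 (SE 0.0338), from 121 ± 3.79 to 242 ± 5.37 CPM, and GARS by 0.82 (SE 0.0350), to 220.2, 213 and 216 CPM. The smaller rises were those of NARS (0.45, SE 0.0354), from 119, 110.3 and 112 to 154, 156 and 158 CPM, and of CARS (0.21, SE 0.0385), to 87.0, 85.6 and 86.9 CPM. HARS rose by 0.20 (SE 0.0353) and AARS by 0.18 (SE 0.0292), AARS to 252, 249 and 259 CPM. For AARS, CARS, HARS and FARSA these sizes are near the 0.20 by which total-count scaling moved the median of all genes, and each was called higher under every scaling run.

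Of the 8 enzymes held in the multisynthetase complex 5 rose, 2 fell and 1 was not called, with a median of 0.58. IARS rose most, from 91.9, 82.2 and 82.8 CPM to 237, 249 and 247, a log2 change of 1.51 (SE 0.0417, adjusted p = 9.08e-16, edgeR). MARS, the methionine enzyme, rose by 1.12 (SE 0.0302), from 173, 174 and 169 CPM to 369, 373 and 384. DDIT3, which overlaps MARS on chr12, rose too, from 21.7 to 52.7 CPM (log2 change 1.28). ARHGAP9, which also overlaps MARS, fell from 90.0 to 56.7 CPM (-0.67). Of the exon bases of MARS 13.3% lie in another gene, and the strand used in counting is not given in the sources used here. LARS rose by 0.68 (SE 0.0363), from 111 ± 2.99 to 178 ± 5.84 CPM. RARS rose by 0.62 (SE 0.0459) and EPRS by 0.53 (SE 0.0373), EPRS to 118 ± 2.59 CPM.

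QARS went the other way, from 167, 182 and 174 CPM to 102, 99.4 and 106, a log2 change of -0.77 (SE 0.0366, adjusted p = 1.49e-12, edgeR). It was the cytosolic gene with the largest fall, and its libraries with MYC lay below all others. DARS was called lower by 0.11 (SE 0.0416, adjusted p = 0.0182), from 120.3, 106 and 114 CPM to 105, 105 and 104, but the change was 0.09 with total-count scaling (adjusted p = 0.0673) and was not called with DESeq2 (adjusted p = 0.131), with RLE size factors (0.105) or in a fit of the 2 groups alone (0.0527). KARS was at 168, 175 and 171 CPM against 167, 173 and 165, with overlapping ranges and no call (-0.02, SE 0.0309), and was called higher only with total-count scaling (0.17, adjusted p = 5.23e-05). The messages of 8 enzymes that share 1 complex thus ranged from -0.77 to 1.51 in log2 change.

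Both scaffold genes rose. AIMP2, on chr7:6009245-6023834, went from 15.2, 15.0 and 13.8 CPM to 48.3, 49.1 and 47.3, a log2 change of 1.71 (SE 0.0583, adjusted p = 1.49e-14, edgeR). EIF2AK1, with which AIMP2 shares 28.9% of its exon bases, fell in the same comparison (-0.17, from 205 to 182 CPM). AIMP1 rose by 0.29 (SE 0.0523), from 46.1, 42.9 and 42.8 CPM to 51.8, 54.0 and 55.9. EEF1E1, a further protein of the complex that was not among the 38 genes, rose by 0.77 (SE 0.071), from 15.3, 13.7 and 14.1 to 26.0, 23.4 and 24.0 CPM.

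By catalytic class, the 9 class I cytosolic genes had a median log2 change of 1.12 with MYC (8 higher, 1 lower) and the 10 class II genes one of 0.35 (8 higher, 1 lower, 1 not called). The mitochondrial medians were 0.39 for 9 class I genes and 0.03 for 7 class II genes. These medians describe small lists whose ranges overlap, with QARS, a class I enzyme, the lowest of all 38.

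Among the 16 mitochondrial synthetases 9 rose with MYC, 4 fell and 3 were not called, with a median log2 change of 0.26. Of all genes tested 42.1% were called higher and 42.6% lower. Ranges did not overlap for 13 of the 16 genes, a share near the 85% of all genes. MARS2, the methionine enzyme, rose most, from 17.0, 16.7 and 16.7 CPM to 31.6, 30.9 and 29.6, a log2 change of 0.87 (SE 0.0578, adjusted p = 1.71e-10, edgeR). YARS2 rose by 0.85 (SE 0.0694), from 15.4 ± 0.457 to 27.6 ± 1.73 CPM (SD, n = 3). TARS2 rose by 0.74 (SE 0.0571), to 72.3, 74.1 and 72.8 CPM. Each of these genes had all its MYC libraries above the other groups. EARS2 rose by 0.71 (SE 0.0613), from 16.5, 17.1 and 18.7 CPM to 28.9, 28.3 and 28.4, and LARS2 by 0.69 (SE 0.0471), from 47.2, 48.5 and 50.7 CPM to 75.9, 80.9 and 79.4. PARS2 (0.50, SE 0.136), WARS2 (0.39, SE 0.0917), VARS2 (0.29, SE 0.0351) and SARS2 (0.24, SE 0.0611) rose as well. WARS2 with MYC was at 11.1, 14.3 and 11.7 CPM, 1 library being above the others, and VARS2 went from 109.8, 112 and 116 CPM to 136, 141 and 137. Of the exon bases of SARS2 57.0% lie in AC011455.2 or MRPS12, and 22.0% of those of VARS2 lie in GTF2H4. Reads of these neighbours may be counted with SARS2 and VARS2 or left out.

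CARS2, the mitochondrial cysteine enzyme on chr13:110641412-110713603, fell most. It was at 69.8, 72.2 and 73.4 CPM in shDHX15 and at 45.9, 43.1 and 43.6 with MYC, a log2 change of -0.70 (SE 0.0424, adjusted p = 4.66e-11, edgeR), and the groups were far apart. ING1, in which 3.12% of the exon bases of CARS2 lie, fell by 1.16 in the same comparison. IARS2 fell by 0.25 (SE 0.0438), from 79.7, 80.4 and 76.1 CPM to 65.9, 67.8 and 64.9. FARS2 fell by 0.23 (SE 0.0796), from 13.7, 14.2 and 14.3 CPM to 11.4, 12.5 and 12.1, and NARS2 by 0.16 (SE 0.0537), from 26.9, 27.2 and 28.1 to 24.3, 23.9 and 25.6. Of these 4 falls only that of CARS2 was called with total-count scaling, under which IARS2 was at -0.05, FARS2 at -0.03 and NARS2 at 0.04. FARS2 was not called without shDHX15_MYC library 1 (-0.20, adjusted p = 0.0545), nor NARS2 with RLE size factors (adjusted p = 0.0507) or DESeq2 (0.0645). AARS2 (-0.05), HARS2 (0.03) and RARS2 (0.02) were not called, but all 3 were called higher with total-count scaling (0.15, 0.22 and 0.22, adjusted p = 0.0163, 0.00154 and 0.00125, edgeR). AARS2 was at 40.8, 43.9 and 42.2 CPM in shDHX15 and at 39.2, 42.1 and 41.1 with MYC, with overlapping ranges.

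**Figure D3:**
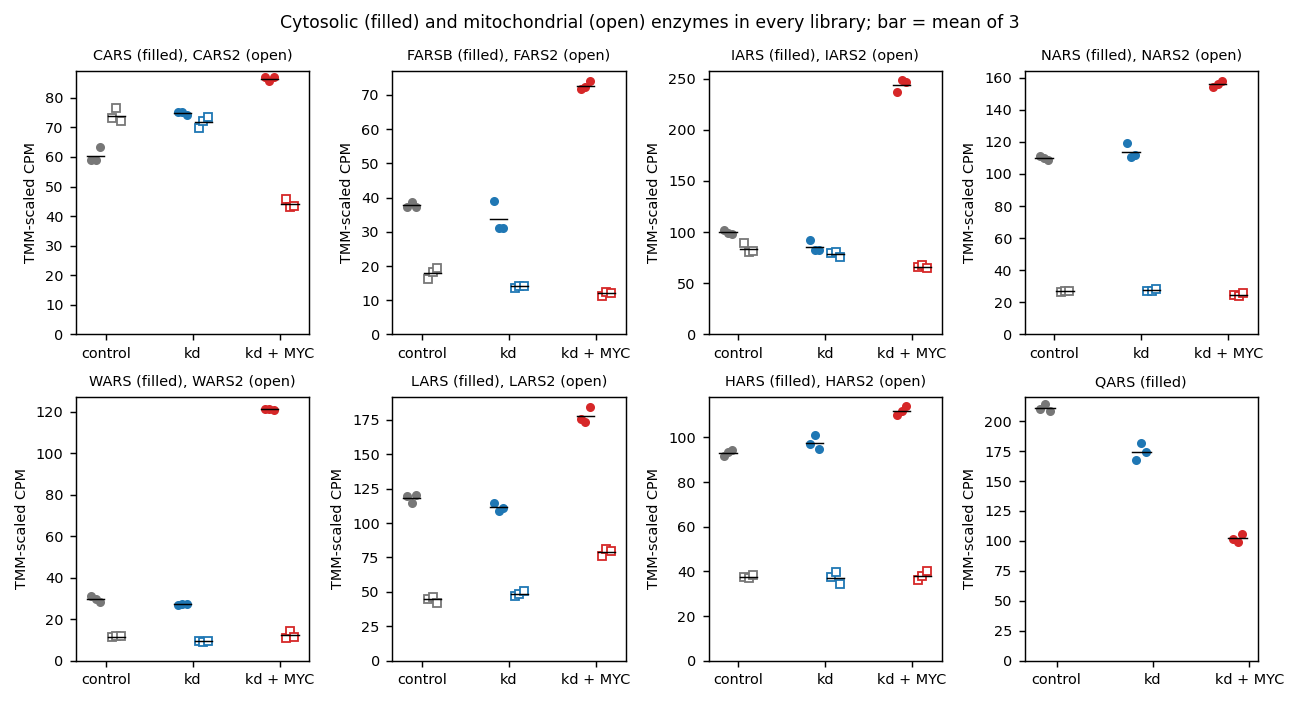
TMM-scaled CPM (y axis, from 0) of selected genes in every library of the 3 groups (x axis), cytosolic enzymes as filled and mitochondrial enzymes of the same amino acid as open points, with bars at the mean of 3 libraries. WARS with MYC lies at 121 to 122 CPM against at most 31.1 elsewhere, and QARS falls in each step.

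Compared with shControl rather than with the knockdown, the cells with knockdown and MYC showed 17 of 20 cytosolic genes higher, 2 lower (QARS and KARS) and 1 not called (DARS, 0.06). DARS was called higher with total-count scaling (0.32, adjusted p = 1.73e-06, edgeR), with RLE size factors (0.09, adjusted p = 0.0449) and in a fit of the 2 groups alone (0.06, adjusted p = 0.0375). Of all genes tested, 42% were called higher and 42.5% lower. This comparison shares its libraries with the 2 above and adds no independent evidence to them. In each of the 20 genes the ranges did not overlap, against 87.2% of all genes. The median was 0.71, against 0.0173 for all genes, and total-count scaling turned 49.7% of calls being higher into 62.4%. WARS was 2.02 above shControl (SE 0.0428, adjusted p = 3.17e-17, edgeR), VARS 1.43 (SE 0.0409), IARS 1.29 (SE 0.0415), TARS 1.29 (SE 0.0341) and MARS 1.19 (SE 0.0303). GARS was 1.11 above shControl, YARS 0.98, FARSB 0.95, RARS 0.86, SARS 0.83, LARS 0.59 and CARS 0.52, while EPRS, NARS and FARSA were each 0.50 above it, AARS 0.42 and HARS 0.27. QARS was 1.04 below shControl on the log2 scale (-1.04, SE 0.0367), a 2.06-fold lower level, and KARS changed by -0.22 (SE 0.0309), a sign that total-count scaling turned (0.05). The scaffold genes were higher, AIMP2 by 1.36 (SE 0.0575) and AIMP1 by 0.30 (SE 0.0526).

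Of the mitochondrial genes 7 of 16 were higher than in shControl, 5 were lower and 4 were not called, with a median of 0.08. TARS2 was higher by 0.99 (SE 0.0582), LARS2 by 0.82 (SE 0.0477), MARS2 by 0.75 (SE 0.0579), YARS2 by 0.63 (SE 0.0692), EARS2 by 0.50 (SE 0.0612), VARS2 by 0.40 (SE 0.0353) and SARS2 by 0.24 (SE 0.0617). Lower were CARS2 (-0.74, SE 0.0426), FARS2 (-0.59, SE 0.0790), IARS2 (-0.34, SE 0.0439), AARS2 (-0.19, SE 0.0533) and NARS2 (-0.12, SE 0.0541). With total-count scaling AARS2 was at 0.07 and not called, NARS2 was called higher at 0.14 (adjusted p = 0.0225, edgeR), the counts became 12 higher and 2 lower, and IARS2 lost its call (-0.07, adjusted p = 0.132). Under that scaling RARS2, not called at -0.09, was called higher at 0.18, PARS2 at 0.34 (adjusted p = 0.0263) and WARS2 at 0.35 (adjusted p = 0.00195). The call of NARS2 (adjusted p = 0.0416) was also lost without shControl library 2 (0.0723) or 3 (0.0853), without shDHX15 library 2 (0.0592), without shDHX15_MYC library 1 (0.0893) or 2 (0.119), with RLE size factors (0.148), with DESeq2 (0.193) and in a fit of the 2 groups alone (0.0501). HARS2 (0.01), PARS2 (0.07) and WARS2 (0.08) were not called, and the ranges of all 3 overlapped those of shControl.

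Summed over its 20 genes, the cytosolic set took 2204 to 2215 CPM in the controls, 2209 to 2239 in the knockdown and 3494 to 3553 with added MYC. The mitochondrial set took 586 to 599, 573 to 587 and 657 to 677 CPM. With MYC the sums were thus 1.58-fold and 1.14-fold those of the knockdown, while the knockdown and control ranges overlapped for both sums. In a measure that does not depend on scaling between libraries, the mean log2 level of cytosolic genes minus that of mitochondrial genes (with 0.5 CPM added) was 1.81, 1.74 and 1.74 in shControl, 1.89, 1.85 and 1.85 in shDHX15 and 2.33, 2.29 and 2.32 in shDHX15_MYC. The groups did not overlap. Their means differed by 0.10 for the knockdown, 0.45 for MYC against the knockdown and 0.55 for MYC against shControl. The members of each set are not replicates, so no p-value is given for these differences.

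**Figure D4:**
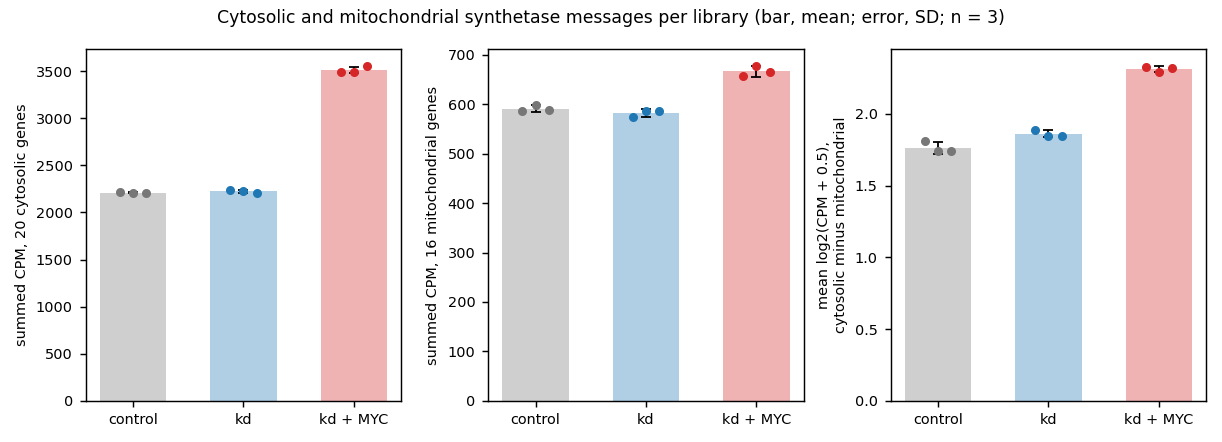
Cytosolic and mitochondrial synthetase messages in each library (points), with the mean (bar) and SD (error bar) of 3 libraries per group. The cytosolic sum with MYC lies at 3494 to 3553 CPM against at most 2239 CPM in the other libraries, and the mitochondrial sum at 657 to 677 against at most 599.

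A ratio of the cytosolic to the mitochondrial enzyme of the same amino acid was then taken within each library, for 17 pairs in 3 comparisons (51 tests). Such a ratio compares changes and is free of scaling between libraries. With 3 libraries against 3 the exact permutation test cannot go below p = 0.1, and the smallest value adjusted over the 51 tests was 0.121, so that no pair could pass. With MYC against the knockdown the ranges of the ratio did not overlap in 15 of 17 pairs, 14 of them with the ratio higher for the cytosolic enzyme. Taken singly, 85% of all genes tested did not overlap in this comparison, and no such share was taken over other pairs of genes. The count alone therefore says little about these pairs. The largest shifts in log2 ratio were those of WARS to WARS2 (from 1.48 to 3.25), IARS to IARS2 (0.12 to 1.88), VARS to VARS2 (-0.72 to 0.66) and FARSB to FARS2 (1.23 to 2.55). In 5 pairs the cytosolic gene was called higher and the mitochondrial gene lower. These were CARS and CARS2, IARS and IARS2, NARS and NARS2, and FARS2 with each of FARSA and FARSB, and of the mitochondrial calls only that of CARS2 held with total-count scaling.

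For cysteine, the message for the mitochondrial enzyme went from 71.8 ± 1.81 CPM in the knockdown to 44.2 ± 1.49 with MYC (SD, n = 3). That for the cytosolic enzyme went from 75.0 ± 0.593 to 86.5 ± 0.776 CPM, and the log2 ratio of CARS to CARS2 went from 0.06 to 0.96. For leucine the ratio did not move with MYC beyond its spread (a difference of -0.01, exact permutation p = 0.9), since LARS and LARS2 rose alike (0.68 and 0.69). EPRS to EARS2 was the pair whose ratio fell (a difference of -0.17), and EPRS to PARS2 overlapped. In the knockdown 11 pairs did not overlap, 8 with the ratio shifted to the cytosolic enzyme and 3 to the mitochondrial one (LARS, SARS and VARS). Taken singly, 51.1% of all genes did not overlap there. Against shControl 16 of 17 pairs did not overlap with MYC, 15 with a shift to the cytosolic enzyme, beside 87.2% of all single genes.

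HARS and HARS2, the enzymes for histidine of cytosol and mitochondria, are neighbours that are read in opposite directions on chr5. The RefSeq starts have 84 bases between them, shown on the strand of HARS2 because this stretch lies before both of these starts. In GENCODE, HARS extends to base 140691862 and HARS2 begins at 140691426, so the annotated genes overlap there.
HARS to HARS2, chr5:140691371-140691454, plus strand: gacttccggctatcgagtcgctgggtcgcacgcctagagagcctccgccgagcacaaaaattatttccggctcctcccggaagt
Over the control, knockdown and MYC groups, HARS was at 93.1 ± 1.35, 97.6 ± 3.02 and 112 ± 2.07 CPM and HARS2 at 37.6 ± 0.712, 37.2 ± 2.71 and 37.9 ± 2.07 CPM (SD, n = 3). HARS was called higher with MYC and HARS2 was called in none of the 3 comparisons under TMM scaling, although total-count scaling called it higher with MYC (0.22 over the knockdown and 0.28 over shControl). The difference between the 2 genes with MYC, as the change of their log2 ratio, was 0.17 with no overlap of libraries (exact permutation p = 0.1, the smallest possible). The exons of HARS and HARS2 overlap each other, WDR55 overlaps HARS and ZMAT2 overlaps HARS2. In all, 8.38% of the exon bases of HARS and 15.8% of those of HARS2 lie in another gene.

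Per kilobase of the principal transcript, which allows levels to be compared between genes, KARS led in shControl at 97.5 CPM per kb, followed by QARS at 74.6, FARSA at 73.8 and SARS at 73.2. With MYC the order was SARS at 130.4, MARS at 129.2, FARSA at 103.9 and KARS at 84.0 CPM per kb. QARS went from rank 2 of 38 to rank 18, WARS from rank 31 to rank 15, VARS from 20 to 9 and CARS2 from 9 to 23. The spread among the genes was wide in every group, with PARS2 last at 2.49, 1.85 and 2.62 CPM per kb. Ranks rest on annotated lengths, and the transcripts used in these cells were not measured here.

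**Figure D5:**
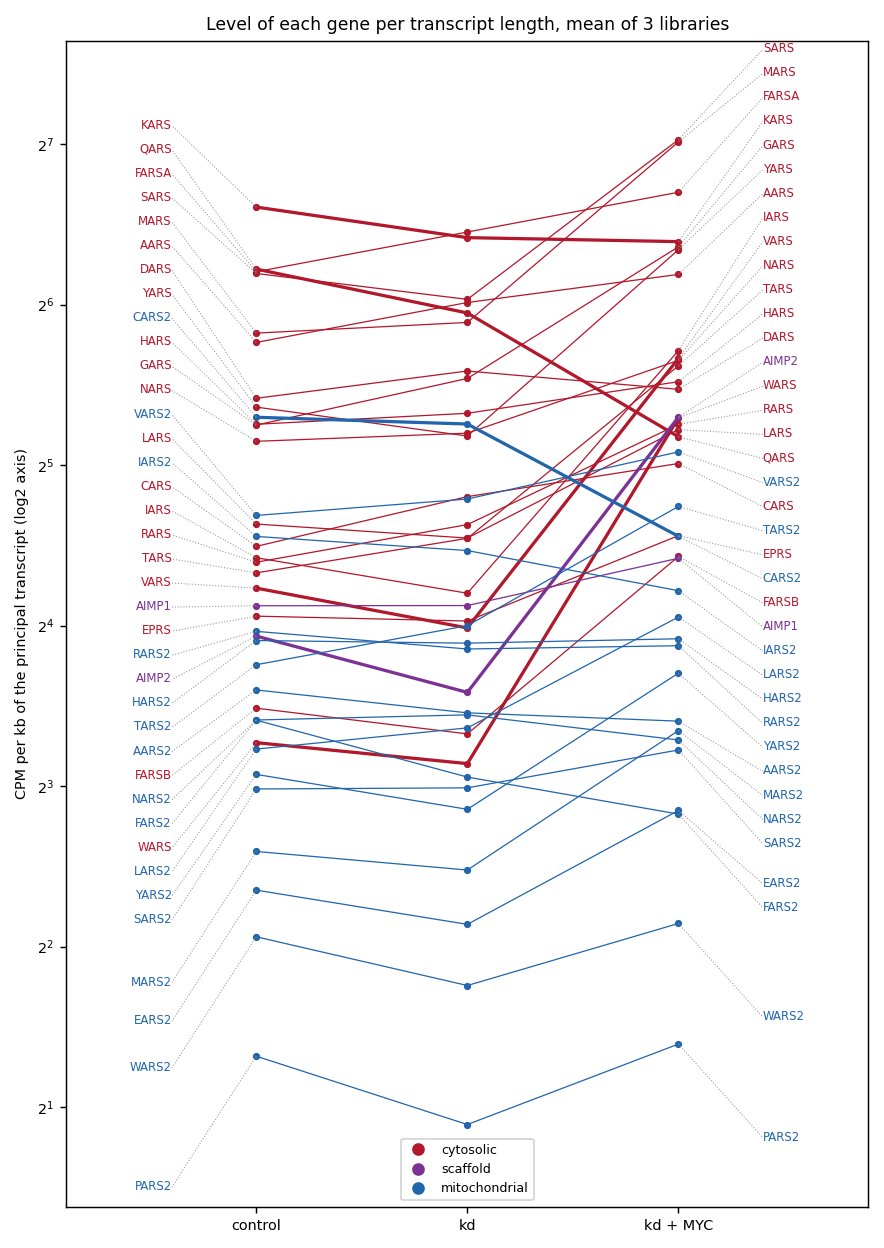
Mean CPM per kilobase of the principal transcript (y axis, log2 scale) of each gene in the 3 groups (x axis), coloured by compartment, with dotted leaders from the labels to the first and last points. Thick lines mark KARS, QARS, VARS, WARS, AIMP2 and CARS2; QARS goes from 74.6 to 36.2 and WARS from 9.65 to 39.2.

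The cytosolic genes with the TGATGNAA motif near their start, whose sequences stand above, had a median log2 change of 0.82 with MYC over the knockdown (7 genes, 0.18 to 1.51), and those with a window but without it one of 0.53 (9 genes, -0.77 to 2.15). The ranges overlap, and WARS, the gene with the largest rise, has no match in its window. The 3 mitochondrial genes with CACGTG ran from -0.70 (CARS2) through 0.71 (EARS2) to 0.87 (MARS2). No match in a window says only that these letters are not there.

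Genes listed for the sensing of uncharged tRNA, ATF4 and genes linked to it among them, were mostly higher with MYC. With MYC 10 of the 11 rose and 1 fell, beside 42.1% and 42.6% of all genes, and their median log2 change was 1.28. ATF4 was at 445, 437 and 431 CPM in shDHX15 and at 838, 854 and 863 with MYC, a log2 change of 0.96 (SE 0.027, adjusted p = 1.4e-15, edgeR). ATF5, a related factor, rose by 2.11 and EIF2S1, the subunit of the initiation factor that the kinase modifies, by 1.23. ASNS, the asparagine synthetase and a known ATF4 target, rose by 1.02, DDIT3 by 1.28, SESN2, an inhibitor of mTORC1 signalling, by 1.49 and CHAC1, a glutathione-degrading enzyme, by 2.29. GCN1, a partner of the kinase, rose by 0.73. The largest rise in the list was that of IMPACT, from 0.893 to 9.94 CPM (log2 change 3.47). The list mixes regulators of the kinase with genes downstream of it, so the count of rises gives no direction of the pathway's activity. The kinase gene itself, EIF2AK4, fell by 0.22 and was at -0.34 against shControl. In the knockdown 4 of the 11 were called higher (CHAC1 0.62, SESN2 0.28, DDIT3 0.20 and EIF2S1 0.13) and 5 lower (ATF4 -0.19, GCN1 -0.19, ATF5 -0.17, ASNS -0.17 and EIF2AK4 -0.12). Messages, not proteins or phosphorylation, were measured, and whether uncharged tRNA had a part in these changes was not tested.

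Of 13 other charging and proofreading factors, 8 rose with MYC and 5 fell, against 42.1% and 42.6% of all genes, so that the share that fell was near that of all genes. GATB, a subunit of the mitochondrial enzyme that makes glutaminyl-tRNA, rose by 1.05, from 15.1, 17.1 and 14.8 CPM to 33.1, 33.4 and 30.8, and QRSL1, its partner subunit, by 0.50. AARSD1, a proofreading factor, rose by 0.83. SEPSECS, which makes selenocysteinyl-tRNA, fell by 1.31, from 40.9, 34.2 and 36.0 CPM to 15.0, 15.7 and 14.2, and DTD1, which removes D-amino acids from tRNA, fell by 0.94. In the knockdown 2 of the 13 rose (SEPSECS 0.34, QRSL1 0.13) and 5 fell, against 22% and 23% of all genes.

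RNA polymerase III, which makes tRNA, was represented by 22 genes with its factors, of which 14 rose with MYC and 7 fell, beside 42.1% and 42.6% of all genes. POLR3C rose by 1.84, GTF3C4 by 1.62, POLR3B by 1.52, POLR3A by 1.20, GTF3C6 by 1.17, POLR3F by 0.78, BDP1 by 0.67, CRCP by 0.32, BRF2 by 0.27 and GTF3C3 by 0.19. POLR3GL fell most in this list, by 1.02. BRF1, a subunit of the initiation factor TFIIIB, fell by 0.60, GTF3A, which serves 5S ribosomal RNA genes, by 0.37 and GTF3C5 by 0.21. In the knockdown, where 22% of all genes rose and 23% fell, 5 of the 22 rose, among them BDP1 (0.47), and 10 fell, among them GTF3A (-0.38).

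Of 21 genes for the trimming, splicing and export of tRNA, 11 rose with MYC, 3 fell and 7 were not called, where 42.1% of all genes were called higher and 42.6% lower. SSB (La), which binds the ends of new transcripts of polymerase III, rose by 1.24. Of the 10 subunits of ribonuclease P in the list, 7 rose, by 1.34 (RPP40), 1.09 (RPP30), 0.86 (RPP14), 0.83 (POP1), 0.51 (POP7), 0.34 (POP4) and 0.22 (RPP38). POP5 fell by 0.76, and RPP25 (0.27) and RPP21 (0.04) were not called. CLP1 rose by 0.79 and ELAC2, which cuts the far end, by 0.64, while TSEN34, of the splicing endonuclease, fell by 0.72. In the knockdown 3 of the 21 rose and 10 fell, where 22% and 23% of all genes did.

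Of 41 tRNA modification genes 27 rose with MYC, 11 fell and 3 were not called, beside 42.1% of all genes higher and 42.6% lower. At least 2-fold changes were 12 rises and 2 falls, ADAT1 (-1.13) and TRDMT1 (-1.11), beside 21.7% and 14.7% of all genes. TRMT1, a guanosine methyltransferase, rose by 2.22, QTRT2, of the queuosine enzyme, by 2.02 and its partner QTRT1 by 0.80. The pseudouridine synthases PUS1, TRUB2, PUS7, TRUB1 and PUS3 rose by 1.62, 1.07, 0.85, 0.51 and 0.27, and PUS10 fell by 0.39. METTL1 rose by 1.54, CTU1 and CTU2, which form 1 thiolation enzyme, by 1.40 each, DUS3L by 1.17, ADAT3 by 0.70, ELP5 by 0.35 and GTPBP3 by 0.13. DUS4L fell by 0.57 and the elongator subunits ELP4 and ELP6 by 0.41 and 0.21, so that subunits of 1 complex again changed unequally. In the knockdown 7 of the 41 rose and 12 fell, beside 22% and 23% of all genes. Those that fell included TRMT1 (-0.43), TRUB2 (-0.40) and QTRT1 (-0.39). Together the 5 lists hold 108 genes, of which 70 rose with MYC and 27 fell, with a median of 0.51.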

How the data were processed

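Poly(A) RNA of 9 KOPTK1 libraries was sequenced from both ends, per the labels' protocols. Build hg38 and the tools HISAT2 2.2.1, FastQC 0.11.9 and DESeq2 1.32.0 appear in the submitters' processing notes. Which program counted the reads, with which strand setting and annotation, is not given in the sources used here. Raw counts per gene were deposited by the authors (17637 genes). Columns named for a GFP hairpin were taken as shControl, and those named for hairpin 1, without or with MYC, as shDHX15 and shDHX15_MYC.

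Genes passing filterByExpr (15309, all 38 members included) were fitted with edgeR 4.0.16 in R 4.3.3 (TMM scaling, quasi-likelihood, 1 mean per group, all 9 libraries). Tests were 2-sided, with Benjamini-Hochberg adjustment over the 15309 genes and calls at 0.05. Adjusted p-values are from this model unless another is named. A difference in log2 carries its standard error (SE), a level its standard deviation (SD). Only the edgeR fit was tested on simulated data, with far fewer genes changed than were called here. The compartment scores, pair ratios and motif search were not simulated.

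The members, motifs and related lists were chosen with earlier results of these data known. Every member is named. Values in every library are given for DHX15, MYC, both scaffolds, the 4 cytosolic and 4 mitochondrial members with the smallest adjusted p per comparison, members called against most of their compartment, and pairs called in opposite directions. Of each related list, the 3 called genes with the smallest adjusted p with MYC and genes called in all 3 comparisons are named, most with values; some genes that the rule selects are not reported here.

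Libraries were not paired by number. Coordinates, lengths and overlaps are from GENCODE v29 (GRCh38) and promoter windows from RefSeq (GRCh38.p14). No 100-base window of the members' transcripts was found at another locus. Alternatives were RLE and total-count scaling, DESeq2 1.42.0, no low-count filter, the 2 compared groups alone, a replicate block and each library left out.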

Additional observations from a re-analysis of the deposited data

How the results depend on the processing

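Of 684 single-gene values under alternatives that kept every library of the groups compared, 641 kept direction and call and 15 turned in sign. Of the rest, 17 lost a call and 11 gained one with the same sign. Some of the 15 also lost or gained a call, such as DARS and KARS in MYC against the knockdown with total-count scaling. The cause of none of these changes was tested. Total-count scaling turned EPRS (0.036), CARS2 (0.024) and HARS2 (0.051) in the knockdown, DARS (0.085), KARS (0.17), AARS2 (0.15) and NARS2 (0.042) in MYC against the knockdown, and KARS (0.0499), AARS2 (0.0705), NARS2 (0.14) and RARS2 (0.18) in MYC against shControl. KARS in MYC against the knockdown was 0.014 with RLE size factors and 0.013 with DESeq2. HARS2 was 0.0036 in the knockdown with the 2 groups alone and -0.0059 in MYC against shControl with no low-count filter. Total-count scaling called 3 mitochondrial genes lower in the knockdown (6 under TMM), 1 with MYC (4), and 12 higher and 2 lower against shControl (7 and 5). Cytosolic genes lower with MYC were 1, not 2, with RLE, total counts, DESeq2 or the 2 groups alone, and against shControl 1 with total counts. The cytosolic minus mitochondrial difference, taken as medians, was 0.18, 0.49 and 0.66 in the 3 comparisons, and 0.48 with MYC when KARS and GARS were left out.

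Leaving out 1 library at a time gave 4 to 9 mitochondrial genes called in the knockdown (4 without shControl library 3 or shDHX15 library 3), 1 to 3 of them higher and 3 to 6 lower. Over these fits, in the knockdown AIMP1 ran from -0.046 to 0.039, HARS2 from -0.068 to 0.04002 and SARS2 from -0.0029 to 0.024. In MYC against the knockdown HARS2 ran from -0.037 to 0.0856 and RARS2 from -0.019 to 0.0397. In MYC against shControl HARS2 ran from -0.033 to 0.045, PARS2 from -0.048 to 0.17 and WARS2 from -0.037 to 0.15. None of these was called in the full fit.

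With a replicate block, 6748, 12904 and 12851 genes were called in the 3 comparisons, against 6886, 12966 and 12939 without it, and no call of the 38 genes changed. Libraries of the same number did not deviate together from their group means (r from -0.0239 to 0.0412 across genes), so they share only a number and no pairing was used. At these depths each of the 38 genes had enough counts to be tested, PARS2 being the lowest.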
